A study of Homo sapiens with 9 samples.

Results

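The 39 protein-coding HOX genes of the human genome were followed across 3 culture conditions of H1, a long-established line of human embryonic stem cells. They were taken from a table of 40332 gene symbols as the rows named HOXA, HOXB, HOXC or HOXD followed by a paralog number, which gave 11 genes of the HOXA cluster, 10 of HOXB, 9 of HOXC and 9 of HOXD. HOX transcripts were scarce in all conditions, and all 4 clusters lost transcripts between naive culture and basal medium. With an inhibitor of EZH2 in the basal medium the summed level of the HOXA, HOXC and HOXD clusters stood above that in naive culture, while HOXB stood between its levels in naive culture and basal medium. The summed HOXD excess over naive culture was not present without HOXD13, although HOXD11 and HOXD12 also stood above naive culture, at few counts. Of 9 tested HOXA genes, 7 did not pass the test against naive culture. HOXD13, the terminal gene of the HOXD cluster, had the largest fitted increase among the tested HOX genes with counts in both groups.

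HOX genes encode homeodomain transcription factors that give body segments their identity along the head-to-tail axis. They lie in 4 clusters in an order that matches where they act, from anterior genes with low paralog numbers to posterior genes with high ones. Polycomb repressive complex 2 (PRC2) keeps them silent in pluripotent cells. EZH2, its catalytic subunit, places the repressive methylation of histone H3 on lysine 27, and EPZ-6438 (tazemetostat) blocks that activity. HOX proteins bind DNA together with PBX and MEIS proteins, and their clusters are opened in the embryo by signals that include WNT, acting through CDX factors, and retinoic acid.

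RNA-seq was made from 9 libraries of wild-type H1 cells, 3 in each group. One group was in PXGL, a medium for naive human pluripotency that contains kinase and tankyrase inhibitors and LIF. Another was in N2B27, the basal medium of PXGL, and the last was in N2B27 with 5 µM EPZ-6438 for 3 days. All libraries come from 1 cell line, the labels do not say how long the cells spent in N2B27 alone, and so time out of PXGL and the inhibitor cannot be told apart. Libraries held 14482105 to 18358530 counts, and 3 counts in a library corresponded to 0.164 to 0.211 CPM (counts scaled to a common library size, with TMM factors). Core pluripotency markers were present in all groups, with 8 of 8 listed genes detected and summed levels of 3941 to 4274 CPM in PXGL, 6314 to 6457 in N2B27 and 4972 to 5033 with EPZ-6438. Every group thus carried the markers of the stem cell identity in its label.

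Promoter letters are shown for 5 of the 8 genes that had the highest or the lowest fitted change with EPZ-6438 in their cluster, since these mark the ends of the response described below. The other 3, HOXB9, HOXC12 and HOXC6, are named only. They are the 250 bases before the RefSeq transcription start (GRCh38.p14), written 5′ to 3′ on the gene's strand, with CG dinucleotides in capitals. CG-rich promoters are the usual sites of PRC2 binding in mammals. The HOXA pair is HOXA10 (chr7:27179862-27180111, minus strand, 19 CG) and HOXA7 (chr7:27156676-27156925, minus strand, 28 CG). In HOXB the gene with the lowest change is HOXB1 (chr17:48531012-48531261, minus strand, 7 CG) and the highest is HOXB9. The HOXD pair is HOXD13 (chr2:176092471-176092720, plus strand, 21 CG) and HOXD1 (chr2:176188418-176188667, plus strand, 31 CG). The HOXC pair is HOXC12 and HOXC6.
HOXA10: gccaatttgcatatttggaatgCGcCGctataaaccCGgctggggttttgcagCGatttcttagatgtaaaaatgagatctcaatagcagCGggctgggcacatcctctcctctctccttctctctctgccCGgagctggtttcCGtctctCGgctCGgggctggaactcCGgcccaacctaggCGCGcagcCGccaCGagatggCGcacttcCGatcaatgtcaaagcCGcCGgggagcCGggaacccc
HOXA7: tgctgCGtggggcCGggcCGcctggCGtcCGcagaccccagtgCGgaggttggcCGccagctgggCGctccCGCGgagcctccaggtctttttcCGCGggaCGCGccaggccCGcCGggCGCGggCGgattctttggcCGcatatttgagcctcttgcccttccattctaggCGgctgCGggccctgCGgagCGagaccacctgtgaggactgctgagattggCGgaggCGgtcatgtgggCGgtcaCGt
HOXB1: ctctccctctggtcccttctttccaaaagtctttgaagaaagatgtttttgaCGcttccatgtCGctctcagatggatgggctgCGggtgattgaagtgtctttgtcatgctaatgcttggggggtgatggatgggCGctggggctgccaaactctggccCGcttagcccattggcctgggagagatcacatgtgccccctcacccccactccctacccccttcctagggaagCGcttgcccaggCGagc
HOXD13: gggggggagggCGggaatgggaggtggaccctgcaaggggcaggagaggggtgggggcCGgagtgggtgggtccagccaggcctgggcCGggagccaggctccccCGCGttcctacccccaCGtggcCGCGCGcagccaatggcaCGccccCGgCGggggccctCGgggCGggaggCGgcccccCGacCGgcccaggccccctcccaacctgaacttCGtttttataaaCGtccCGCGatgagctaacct
HOXD1: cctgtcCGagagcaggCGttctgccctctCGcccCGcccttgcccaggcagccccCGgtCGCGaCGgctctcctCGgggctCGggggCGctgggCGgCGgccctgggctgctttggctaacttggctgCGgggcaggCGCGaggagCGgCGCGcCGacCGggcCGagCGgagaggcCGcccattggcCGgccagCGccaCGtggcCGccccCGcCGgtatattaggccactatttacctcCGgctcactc
The HOXB1 stretch held the fewest CG dinucleotides of these 5, and HOXB1 had the lowest change. HOXD1 held the most, and it too did not pass the test, so CG number did not order these 5 genes by response.

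RefSeq promoter windows of 300 bases (250 before and 50 after the start) were matched for 20 of 39 HOX symbols, giving 26 windows of which 7 belong to HOXA3. Of HOXB only HOXB1 was matched, and of HOXC only HOXC4 and HOXC5, which share a window. The values below thus describe mostly HOXA and HOXD. HOX windows held a median of 22.5 CG dinucleotides against 14.0 over all 34943 windows, with 19 of 26 at or above that median. A CDX recognition motif, TTTATNG on either strand, was found in 23.1% of HOX windows and 9.7% of all windows. The HOX-PBX motif TGATNNAT was in 11.5% against 7.4%, TATAAA in 19.2% against 11.6% and CCAAT in 65.4% against 34.6%. TTTATNG and the complement of TATAAA can overlap, so these shares are not independent, and the several windows of HOXA3 weigh more than those of other genes. Of the printed genes, HOXD13 and HOXA10 carried TATAAA in a window. The HOX-PBX motif was in a window of HOXB1, HOXA2 and HOXD11.

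With EPZ-6438, HOX genes of all 4 clusters stood above N2B27, and none of those tested fell. Of 28 HOX genes that passed the filter on low counts, 24 rose, 0 fell and 4 did not pass edgeR's quasi-likelihood test. None was lower at an unadjusted p under 0.05 either (0 genes). DESeq2's Wald test, without that filter, called 30 higher and 0 lower of the 36 HOX genes it tested. The edgeR filter drew on all 3 groups. HOXB4, HOXB6, HOXB9 and HOXC12 had no count in N2B27, so they entered through the other groups and could not be called lower. With only the 2 groups compared fitted, 19 of 22 tested HOX genes rose and 0 fell. Over all 15179 genes tested, 14.2% rose and 10.6% fell, 24.7% in either direction. This background was larger without PXGL replicate 1, with 5771 of 15522 genes called in either direction. The median log2 fold change of the tested HOX genes was 3.27 (3.26 with genes that have no count in N2B27 at their lower bound), against 0.01 for all genes tested. In every library with EPZ-6438, 31 of all 39 members stood above every N2B27 library, as did 23.9% of all genes tested. The test compares libraries that are not said to be separate cultures, so its p-values measure the spread between libraries, which may be technical. A low level in bulk RNA can mean fewer cells that express a gene or less RNA per cell, which cannot be told apart here.

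Summed over each cluster, the libraries separated completely by group. The HOXA genes together reached 41.4, 39.1 and 36.0 CPM in PXGL, 9.25, 8.71 and 7.93 in N2B27 and 61.0, 49.5 and 54.2 with EPZ-6438. Of the 9 tested HOXA genes, 2 were higher with EPZ-6438 than in PXGL and 7 did not pass, beside 28.1% higher among all genes. HOXB sums were 70.1, 63.6 and 63.3 CPM in PXGL, 29.9, 32.2 and 25.7 in N2B27 and 47.3, 41.0 and 38.3 with EPZ-6438. HOXB was thus the cluster that kept most in N2B27 and gained least with the inhibitor, with a ratio of mean sums of 1.44 against 6.36 for HOXA. HOXC sums were 10.3, 11.6 and 9.93 CPM in PXGL, 2.43, 1.90 and 1.40 in N2B27 and 20.6, 18.0 and 18.4 with EPZ-6438. HOXD sums were 14.7, 12.2 and 12.7 CPM, then 1.46, 1.62 and 1.67, then 26.5, 31.2 and 30.9 in the same order of groups. The ratio of mean sums with EPZ-6438 to N2B27 was 9.93 for HOXC and 18.7 for HOXD. Without HOXD13 the other 8 HOXD genes summed to 9.21, 8.43 and 8.16 CPM in PXGL, 1.25, 1.26 and 0.999 in N2B27 and 5.63, 6.62 and 7.52 with EPZ-6438, so that every EPZ-6438 library then lay below every PXGL library. All 39 genes together reached 128 ± 7.47 CPM in PXGL, 41.4 ± 4.13 in N2B27 and 146 ± 8.52 with EPZ-6438 (SD, n = 3). Libraries in N2B27 detected 24 to 29 of the 39 genes, those in PXGL 34 to 35 and those with EPZ-6438 37 to 39.

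**Figure D1:**
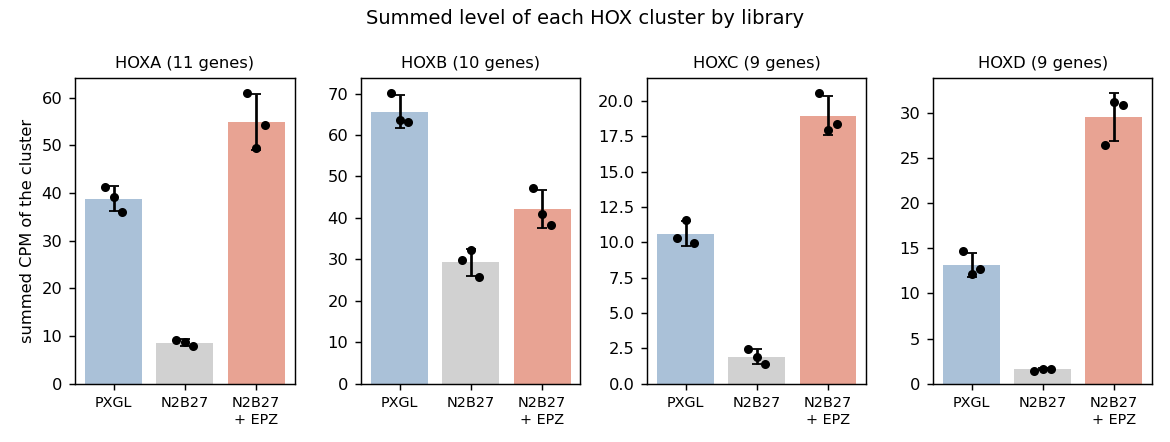
Summed CPM of each HOX cluster in each library (points) with group means (bars) and SD (error bars) for PXGL, N2B27 and N2B27 with EPZ-6438, each panel on its own scale from 0. With EPZ-6438 the HOXA, HOXC and HOXD sums lie above those of PXGL, which for HOXD holds only with HOXD13 included, and the HOXB sums lie between PXGL and N2B27. Of 9 tested HOXA genes, 7 did not pass the test against PXGL.

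In the HOXA cluster (hg38 chromosome 7, all genes on the minus strand), all 9 tested genes rose with EPZ-6438 and all 9 were lower in N2B27 than in PXGL. HOXA3, a gene of the pharyngeal arches and thymus, was at 1.42, 1.64 and 0.888 CPM in PXGL, 0.348, 0 and 0 in N2B27 and 2.08, 0.304 and 1.29 with EPZ-6438. One EPZ-6438 library lay below one N2B27 library, and the call (log2 3.31, SE 0.90, adjusted p = 0.0123) was lost without N2B27 replicate 2, N2B27 replicate 3 or EPZ-6438 replicate 1 (adjusted p up to 0.0803). With 1 library left out the log2 fold change of HOXA3 ran from 2.69 to 7.31, the highest without N2B27 replicate 1, the only N2B27 library with counts of it. HOXA4 stood at 2.58, 1.53 and 1.28 CPM in PXGL, 0.278, 0.0703 and 0.0666 in N2B27 and 1.88, 1.46 and 1.90 with EPZ-6438, and HOXA5, a gene of lung development, went from 2 counts over the N2B27 libraries to 30 with EPZ-6438, 14.2 times as many (95% counting interval 3.60 to 122). For both, every EPZ-6438 library was above every N2B27 library, and PXGL and EPZ-6438 overlapped.

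HOXA7, in the middle of the cluster, kept more of its PXGL level in N2B27 than the other tested HOXA genes, with 8.22, 7.33 and 7.71 CPM in PXGL, 4.45, 4.29 and 3.20 in N2B27 and 12.6, 8.99 and 11.4 with EPZ-6438. Its increase with EPZ-6438 was the smallest among tested HOXA genes, at 2.76-fold (log2 1.46, SE 0.18, adjusted p = 1.45e-05). HOXA9, a gene of blood progenitors and leukemia, was at 5.75, 5.15 and 4.27 CPM in PXGL, 0.696, 0.281 and 0.333 in N2B27 and 5.83, 4.98 and 4.40 with EPZ-6438. EPZ-6438 and PXGL overlapped for this gene, and both lay above N2B27. HOXA10, which patterns the uterus and limb, showed 3.95, 3.17 and 3.66 CPM in PXGL, 0, 0.422 and 0.133 in N2B27 and 6.03, 3.83 and 5.28 with EPZ-6438. The 26.4-fold difference from N2B27 (log2 4.72, SE 0.47, adjusted p = 1.29e-06) was the largest fitted one in the cluster (log2 6.06 without N2B27 replicate 2), and PXGL and EPZ-6438 overlapped. HOXA11, its neighbour with roles in the same organs and the kidney, was at 2.19, 2.74 and 2.50 CPM in PXGL, 0.417, 0.281 and 0 in N2B27 and 4.96, 3.22 and 3.25 with EPZ-6438. Every HOXA11 library with EPZ-6438 lay above every PXGL library, without passing the test (log2 0.62, SE 0.33, adjusted p = 0.126). HOXA13, a digit and genital tract gene at the posterior end, was at 2.47, 2.30 and 3.16 CPM in PXGL, 0.139, 0.351 and 0.200 in N2B27 and 1.94, 1.28 and 2.03 with EPZ-6438. HOXA13 with EPZ-6438 lay below every PXGL library, though that difference did not pass the test (log2 -0.60, SE 0.32, adjusted p = 0.126). HOXA2 and HOXA6 were not tested: HOXA2 had 11, 3 and 27 counts over PXGL, N2B27 and EPZ-6438, and HOXA6 had 2 in each group.

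**Figure D2:**
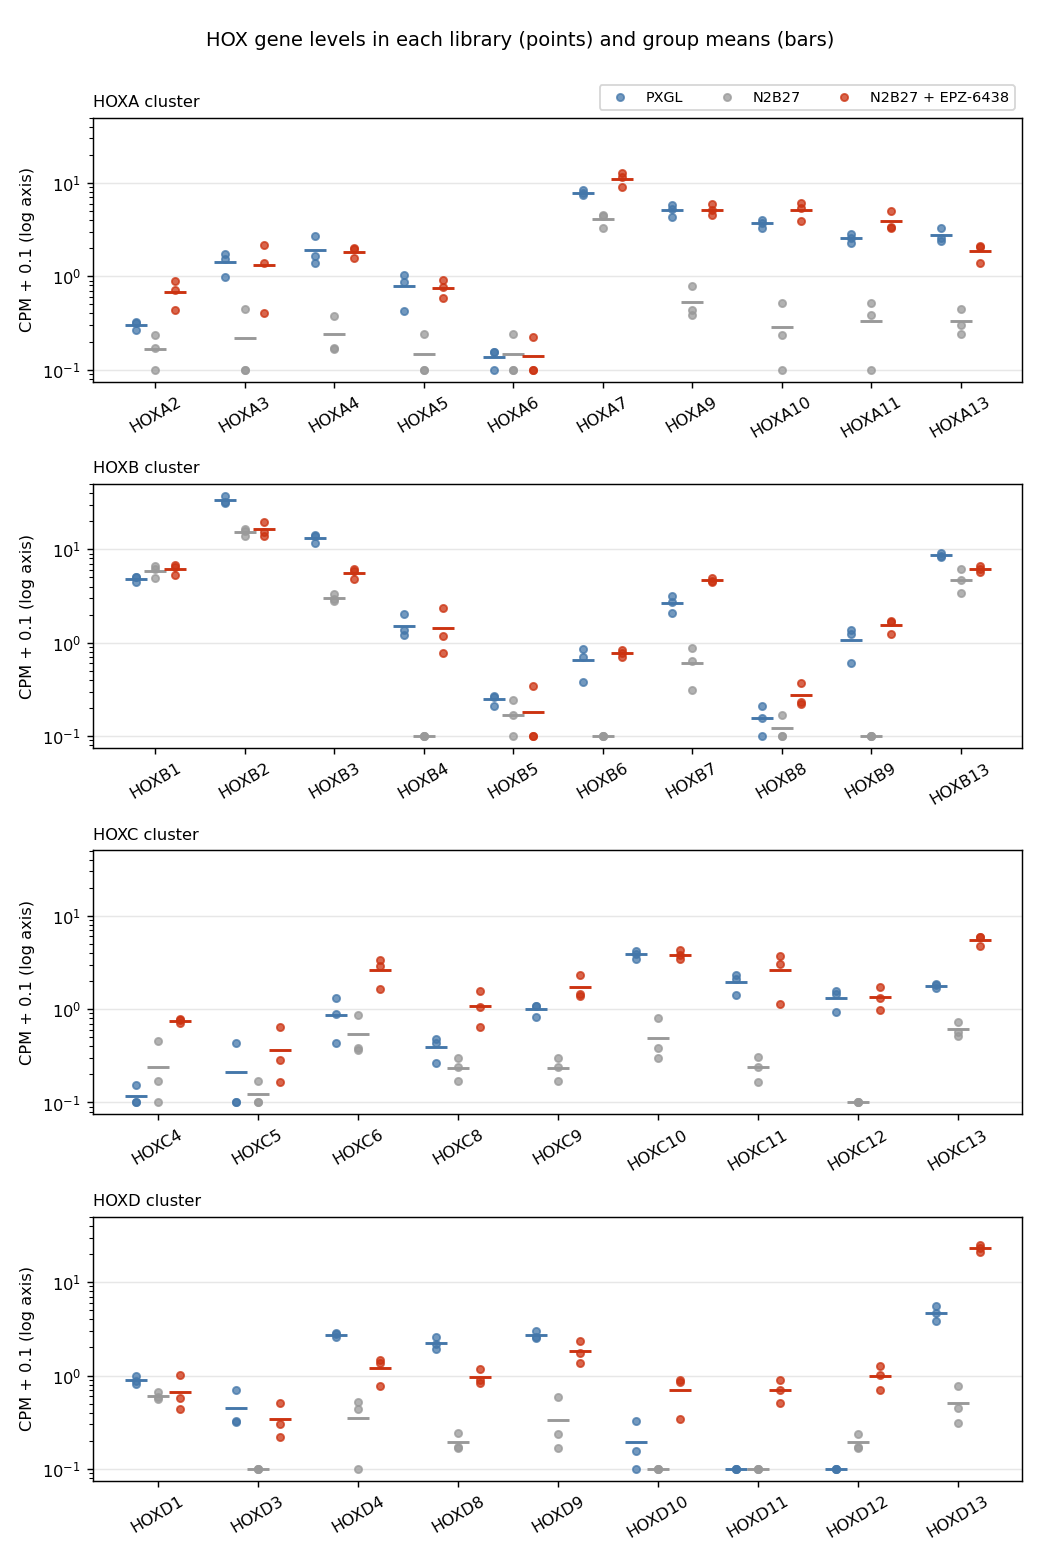
CPM of the HOX genes reported here in every library (points) with group means (bars), 1 panel per cluster, genes in order of paralog number. The vertical axis is logarithmic after adding 0.1 CPM, so that libraries without a count sit at the bottom, and HOXB1 shows the 3 groups at nearly the same height while HOXD13 shows them far apart.

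The HOXB cluster (chromosome 17, 48528526 to 48729178, minus strand) responded unevenly, with 5 of 8 tested genes higher with EPZ-6438. HOXB1, a gene of hindbrain segment identity at the anterior end, was at 4.33, 4.93 and 4.99 CPM in PXGL, 6.54, 6.11 and 4.80 in N2B27 and 6.37, 6.62 and 5.22 with EPZ-6438. N2B27 and EPZ-6438 overlapped and neither change passed the test (EPZ-6438 against N2B27 log2 0.06, SE 0.18, adjusted p = 0.84). HOXB2, also a hindbrain gene, had 37.2, 32.2 and 31.1 CPM in PXGL, 15.6, 16.5 and 13.8 in N2B27 and 19.6, 15.4 and 13.8 with EPZ-6438. HOXB2 fell 2.19-fold between PXGL and N2B27 (log2 -1.13, SE 0.13, adjusted p = 1.24e-06), and its N2B27 and EPZ-6438 libraries overlapped (log2 0.09, SE 0.13, adjusted p = 0.672). HOXB3 showed 14.0, 11.6 and 13.9 CPM in PXGL, 2.85, 2.67 and 3.26 in N2B27 and 5.70, 6.08 and 4.67 with EPZ-6438. Its 3 groups did not overlap, with EPZ-6438 between the others, 1.87-fold above N2B27 (log2 0.90, SE 0.19, adjusted p = 0.00178) and 2.40-fold below PXGL (log2 -1.26, SE 0.16, adjusted p = 4.23e-06).

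The central and posterior HOXB genes had a different record. HOXB4, studied for its effect on blood stem cells, had 1.26, 1.92 and 1.11 CPM in PXGL, no count in the N2B27 libraries and 2.28, 0.668 and 1.08 with EPZ-6438. Against 3 counts over the N2B27 group this was an at least 19.2-fold higher level with EPZ-6438 (adjusted p = 0.00027). HOXB9 likewise had 1.26, 1.15 and 0.499 CPM in PXGL, no count in the N2B27 libraries and 1.61, 1.15 and 1.56 with EPZ-6438, at least 20.8-fold higher with EPZ-6438 (adjusted p = 9.32e-05). HOXB6 had 30 counts in PXGL, 0 in N2B27 and 31 with EPZ-6438, at least 9.77-fold higher (adjusted p = 0.0013). For these 3 genes PXGL and EPZ-6438 overlapped. HOXB7 was at 3.07, 1.97 and 2.66 CPM in PXGL, 0.209, 0.773 and 0.533 in N2B27 and 4.83, 4.38 and 4.54 with EPZ-6438, and here EPZ-6438 lay above both other groups (8.95-fold over N2B27, log2 3.16, SE 0.35, adjusted p = 5.15e-06). HOXB13, a prostate and hindgut gene that sits apart at the posterior end, showed 8.11, 8.98 and 8.49 CPM in PXGL, 4.59, 6.04 and 3.33 in N2B27 and 6.03, 5.59 and 6.50 with EPZ-6438. N2B27 and EPZ-6438 overlapped for HOXB13 (log2 0.38, SE 0.20, adjusted p = 0.188), and both lay below PXGL. HOXB5 had 8, 3 and 4 counts in the 3 groups and HOXB8 had 3, 1 and 8, too few to test.

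In the HOXC cluster (chromosome 12, 53938765 to 54056030, plus strand), which has no anterior members, all 6 tested genes rose with EPZ-6438. HOXC6, a thoracic and limb-level gene, was at 0.329, 1.20 and 0.777 CPM in PXGL, 0.765, 0.281 and 0.267 in N2B27 and 2.82, 3.28 and 1.56 with EPZ-6438. PXGL and N2B27 overlapped (log2 -0.81, SE 0.58, adjusted p = 0.252), and EPZ-6438 lay above both, 5.78-fold over N2B27 (log2 2.53, SE 0.53, adjusted p = 0.00199, and log2 3.19 without N2B27 replicate 1). HOXC9, a thoracic gene of motor neuron identity, had 0.986, 0.985 and 0.721 CPM in PXGL, 0.0696, 0.141 and 0.200 in N2B27 and 1.27, 2.25 and 1.35 with EPZ-6438. HOXC10, a lumbar gene, stood at 4.11, 3.83 and 3.33 CPM in PXGL, 0.696, 0.281 and 0.200 in N2B27 and 3.35, 4.19 and 3.66 with EPZ-6438. HOXC10 libraries with EPZ-6438 overlapped those of PXGL, while every HOXC9 library with EPZ-6438 lay above every PXGL library without passing the test (log2 0.86, SE 0.40, adjusted p = 0.0802). HOXC11 was at 1.32, 2.03 and 2.22 CPM in PXGL, 0.209, 0.141 and 0.0666 in N2B27 and 3.62, 1.03 and 2.98 with EPZ-6438. HOXC12 had 1.48, 1.37 and 0.832 CPM in PXGL, no count in the N2B27 libraries and 1.61, 1.22 and 0.881 with EPZ-6438, at least 18.0-fold higher with EPZ-6438 than N2B27. PXGL and EPZ-6438 overlapped for HOXC11 and HOXC12, and every library of both groups exceeded N2B27. HOXC13, a hair and nail gene at the posterior end, went beyond the PXGL level, with 1.59, 1.75 and 1.72 CPM in PXGL, 0.417, 0.632 and 0.466 in N2B27 and 5.76, 4.62 and 5.76 with EPZ-6438. Its groups did not overlap (10.5-fold over N2B27, log2 3.39, SE 0.30, adjusted p = 3.75e-07). Among the untested members, HOXC4 had 1, 6 and 30 counts over PXGL, N2B27 and EPZ-6438, HOXC5 had 6, 1 and 12, and HOXC8 had 16, 6 and 45. HOXC4 and HOXC6 overlap on the same strand, so the split of reads between them is uncertain.

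The HOXD cluster (chromosome 2, 176092891 to 176190907, plus strand) was dominated by its posterior end once the inhibitor was present. HOXD13, a digit gene at 176092891 to 176095938, was at 5.48, 3.72 and 4.55 CPM in PXGL, 0.209, 0.351 and 0.666 in N2B27 and 20.8, 24.6 and 23.4 with EPZ-6438. The 3 groups were far apart, with a 54.6-fold increase over N2B27 (log2 5.77, SE 0.26, adjusted p = 1.58e-10) and a 5.00-fold excess over PXGL (log2 2.32, SE 0.17, adjusted p = 8.66e-09). HOXD13 supplied 34.8% of the HOXD sum in PXGL, 25.9% in N2B27 and 77.7% with EPZ-6438. Its neighbours had few or no counts outside the inhibitor group. HOXD12 had 0 counts in PXGL, 4 in N2B27 and 41 with EPZ-6438, at least 16.2-fold above PXGL. HOXD11 had 0 counts in PXGL and N2B27 and 28 with EPZ-6438, at least 11.0-fold above PXGL and at least 8.82-fold above N2B27. HOXD10 had 5, 0 and 27 counts in the same order. Every EPZ-6438 library exceeded every library of the other groups for HOXD10, HOXD11 and HOXD12, although all of them stayed below the filter. For HOXD10, EPZ-6438 replicate 2 and PXGL replicate 3 held 4 counts each, so their order rests on library scaling. In edgeR's quasi-likelihood test without the filter, HOXD10 did not pass against PXGL (adjusted p = 0.0526). HOXD10 and HOXD11 overlap, and in 1 library their expected counts of 11.28 and 5.72 summed to 17 whole reads.

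Further toward the anterior end of HOXD the tested genes rose less than HOXD13 and did not exceed PXGL. HOXD9 was at 2.90, 2.46 and 2.44 CPM in PXGL, 0.139, 0.492 and 0.0666 in N2B27 and 1.27, 1.64 and 2.24 with EPZ-6438, and its increase over N2B27 was 7.25-fold (log2 2.86, SE 0.52, adjusted p = 0.000631, and log2 3.97 without N2B27 replicate 2). HOXD8 stood at 2.47, 2.08 and 1.83 CPM in PXGL, 0.0696, 0.141 and 0.0666 in N2B27 and 0.804, 0.729 and 1.08 with EPZ-6438. HOXD4, a hindbrain gene, was at 2.74, 2.52 and 2.66 CPM in PXGL, 0.417, 0 and 0.333 in N2B27 and 0.670, 1.28 and 1.35 with EPZ-6438. All libraries of HOXD9, HOXD8 and HOXD4 with EPZ-6438 lay between N2B27 and PXGL. HOXD8 rose 8.81-fold over N2B27 (log2 3.14, SE 0.60, adjusted p = 0.000899) and remained 2.43-fold below PXGL (log2 -1.28, SE 0.37, adjusted p = 0.00694). For HOXD4 the call over N2B27 (log2 2.10, SE 0.59, adjusted p = 0.0159) was lost without EPZ-6438 replicate 2 or replicate 3 (adjusted p up to 0.0585, log2 1.54 to 2.64 over all libraries left out in turn). HOXD3 was not tested and had 19, 0 and 11 counts in PXGL, N2B27 and EPZ-6438, with EPZ-6438 at least 3.47-fold above N2B27. HOXD1, at the anterior end, had 43, 22 and 27. HOXD1 passed no test (EPZ-6438 against N2B27 log2 0.20, SE 0.52, adjusted p = 0.824).

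By position along the clusters, the genes that did not pass against N2B27 were mostly anterior. Of 6 tested anterior genes (paralog groups 1 to 3) 3 rose with EPZ-6438, with a median log2 fold change of 0.55. All 9 tested central genes (groups 4 to 8) rose, with a median of 3.16, and 12 of 13 posterior genes (groups 9 to 13) rose, with a median of 3.52. The exception among posterior genes was HOXB13, and the anterior exceptions were HOXB1, HOXB2 and HOXD1. The anterior genes that did not pass thus lay in HOXB and HOXD. Across the 28 tested genes the log2 fold change correlated with paralog number at Pearson's r = 0.38 and Spearman's rho = 0.41. Within clusters r was 0.96 (rho 0.90) over the 5 HOXD genes, 0.54 (rho 0.54) over 6 HOXC genes, 0.21 (rho 0.55) over 8 HOXB genes and 0.20 (rho 0.20) over 9 HOXA genes. These use fitted values for HOXB4, HOXB6, HOXB9 and HOXC12, which had no count in N2B27 and for which the fitted value depends on the prior count. These are descriptions across genes measured in the same libraries, and genes are not independent replicates. The filter on low counts left HOXD3, HOXD10, HOXD11 and HOXD12 out of the HOXD value. Fitted without that filter, their log2 fold changes were 4.99, 6.26, 6.28 and 3.15, which do not follow paralog order. HOXD3, HOXD10 and HOXD11 had no count in N2B27, so their fits also depend on the prior count. The fold change ran more closely, and inversely, with the gene's own level in N2B27 (r = -0.79, n = 28), a level that is also the denominator of the fold.

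**Figure D3:**
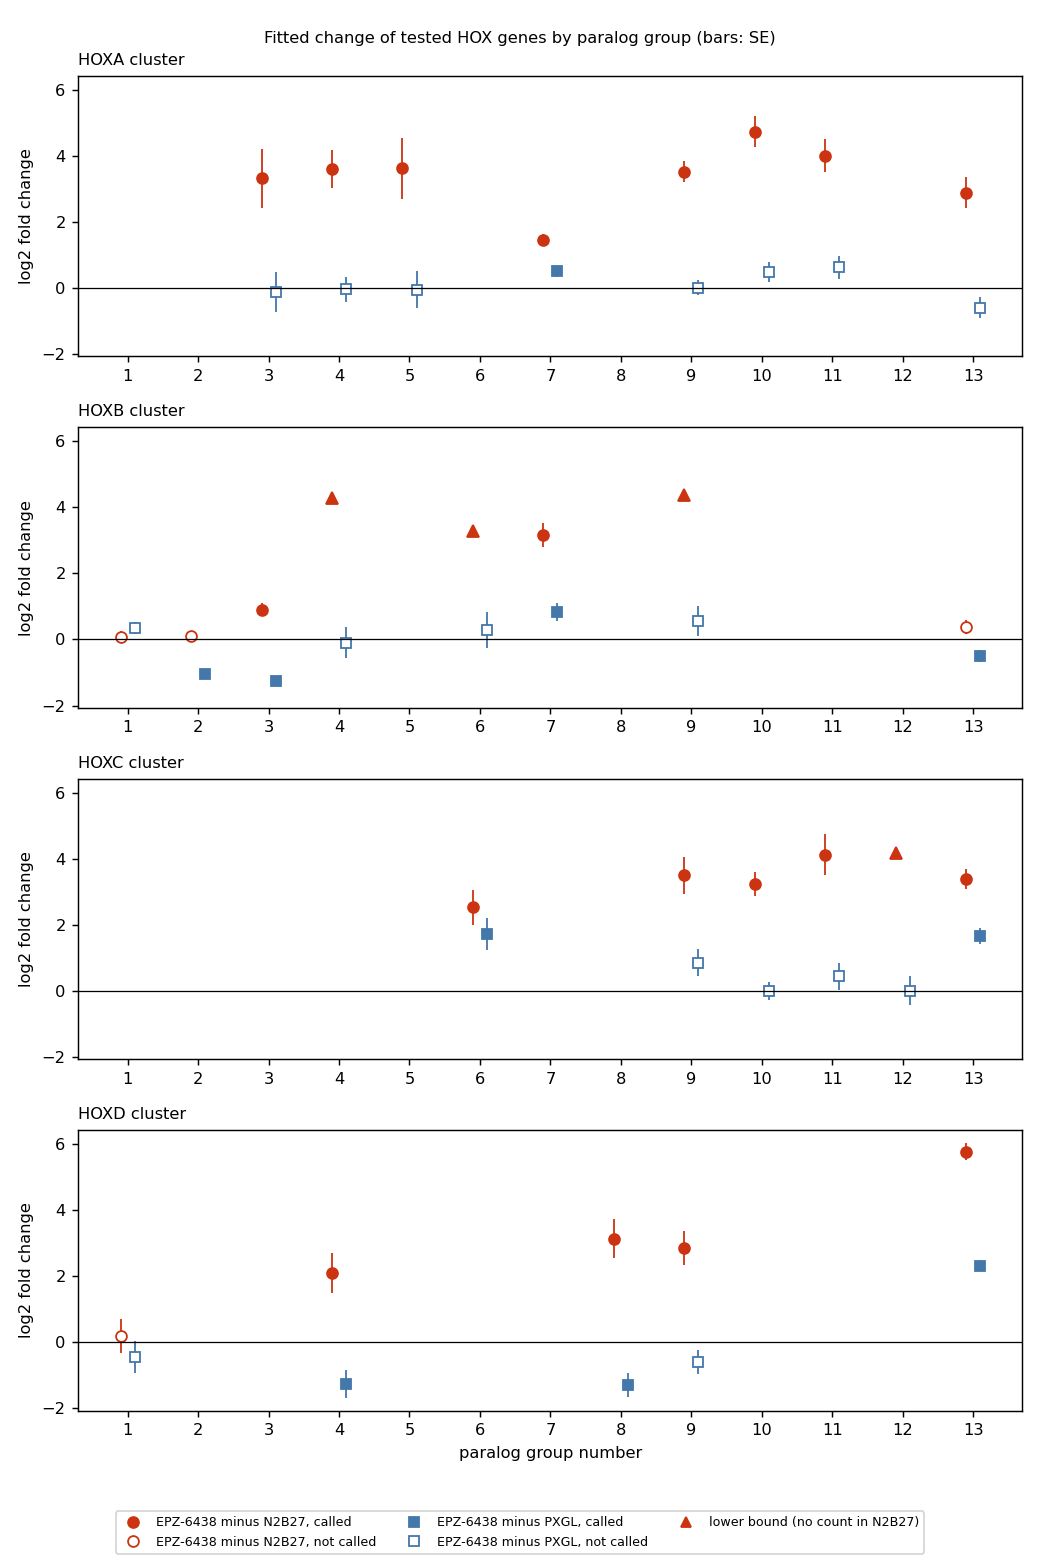
Log2 fold change (vertical axis, bars are SE) of the tested HOX genes reported here against paralog group number, 1 panel per cluster, for EPZ-6438 minus N2B27 (circles) and EPZ-6438 minus PXGL (squares), filled where the test was passed. Triangles are lower bounds for HOXB4, HOXB6, HOXB9 and HOXC12, which had no count in N2B27, and HOXD13 at 5.77 is the highest circle.

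Per kilobase of exon, the order of HOXB2, HOXA7, HOXB13 and HOXD13 was the same in PXGL and N2B27 and changed with EPZ-6438. In N2B27 HOXB2 stood at 6.55 CPM per kb, HOXA7 at 1.65, HOXB13 at 1.34 and HOXD13 at 0.182. In PXGL HOXB2 stood at 14.3 CPM per kb, HOXA7 at 3.22, HOXB13 at 2.46 and HOXD13 at 2.05. With EPZ-6438 HOXD13 at 10.2 CPM per kb came ahead of HOXB2 at 6.97, HOXA7 at 4.56 and HOXB13 at 1.74. HOXD13 thus moved from the last place among these 4 genes in N2B27 and PXGL to the first with EPZ-6438. That last place depends on the choice of the 4 genes. In PXGL HOXD13 stood above HOXB1 at 1.92 CPM per kb, HOXD4 at 1.80 and HOXB3 at 1.77, among others.

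Between PXGL and N2B27, HOX genes fell nearly throughout. Of 28 tested genes 25 were lower in N2B27, 0 were higher and 3 (HOXB1, HOXC6 and HOXD1) did not pass, against 28.7% lower and 27.3% higher over all genes (56.0% in either direction). No HOX gene was higher at an unadjusted p under 0.05 (0 genes). DESeq2's Wald test called 26 lower and 0 higher of the 38 HOX genes it tested. The median was -3.41 on the log2 scale (-3.37 with genes that have no count in N2B27 at their bound), against -0.03 for all genes. Of all 39 members, 28 lay in N2B27 below every PXGL library and 1, HOXD12, lay above, compared with 31.3% below and 29.4% above among all genes tested. HOXA10 fell 18.8-fold (log2 -4.23, SE 0.48, adjusted p = 1.26e-06, and log2 -5.57 without N2B27 replicate 2), HOXD8 fell 21.4-fold (log2 -4.42, SE 0.53, adjusted p = 2.56e-06) and HOXD13 fell 10.9-fold (log2 -3.45, SE 0.30, adjusted p = 6.18e-08). The smallest decreases that passed were in HOXB13, 1.83-fold (log2 -0.88, SE 0.19, adjusted p = 0.00102), and HOXA7, 1.95-fold (log2 -0.96, SE 0.18, adjusted p = 0.00028). HOXB4, HOXB6, HOXB9 and HOXC12 went to no count, at least 20.8-fold, 8.0-fold, 14.1-fold and 17.9-fold lower. They passed the filter on low counts through the other groups and could not be called higher in N2B27. This comparison and the one of EPZ-6438 with N2B27 share the N2B27 libraries, so opposite signs in them are not independent of each other.

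EPZ-6438 and PXGL have no library in common, and their comparison places the inhibitor group against the naive level. Of 28 tested genes 6 were higher with EPZ-6438 and 5 lower, against 28.1% higher and 28.0% lower over all genes (56.1% in either direction), so the called HOX genes were no larger a share than that background in either direction. The higher genes included HOXD13, HOXC13, HOXC6, HOXB7 and HOXA7, and the lower were HOXB2, HOXB3, HOXD8, HOXD4 and HOXB13. HOXC13 was 3.18-fold higher (log2 1.67, SE 0.24, adjusted p = 2.12e-05), HOXC6 3.30-fold (log2 1.72, SE 0.47, adjusted p = 0.00525) and HOXB7 1.78-fold (log2 0.83, SE 0.28, adjusted p = 0.0166). HOXB2 was 2.06-fold lower (log2 -1.04, SE 0.13, adjusted p = 2.83e-06). The 17 others did not pass, which does not show that they were equal: 15 of them were lower in N2B27 than in PXGL and higher with EPZ-6438 than in N2B27. In those 15 the log2 difference from PXGL ran from -0.60 in HOXD9 to 0.86 in HOXC9, with SE from 0.22 in HOXA9 to 0.60 in HOXA3. The median over tested HOX genes was 0.01, against 0.00 for all genes. Every EPZ-6438 library was above every PXGL library for 16 of 39 members and below for 7, compared with 30.6% and 30.1% of all genes tested.

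Several of these calls lay near the threshold and were lost when 1 library was left out, with the fold change close to its value in all libraries. HOXA7 was not called without PXGL replicate 2, EPZ-6438 replicate 1 or EPZ-6438 replicate 3 (adjusted p up to 0.0900, log2 0.39 to 0.63 over all libraries left out in turn). HOXB7 was lost without PXGL replicate 2 or EPZ-6438 replicate 1 (up to 0.0797, log2 0.67 to 0.98). HOXB13 (log2 -0.50, SE 0.19, adjusted p = 0.0318) was not called without PXGL replicate 2 or 3 or EPZ-6438 replicate 1 or 2 (up to 0.103, log2 -0.55 to -0.44), nor by DESeq2's Wald test (adjusted p = 0.0551). HOXD4 (log2 -1.25, SE 0.43, adjusted p = 0.0204) was not called without EPZ-6438 replicate 1 (0.0875, log2 -1.42 to -1.003). The number of genes higher than PXGL became 10 without PXGL replicate 3 or without any 1 of the N2B27 libraries, in fits that tested 32 HOX genes. The number lower became 3 without EPZ-6438 replicate 1.

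Genes around the clusters mostly did not pass the test with EPZ-6438 against N2B27. Of 47 protein-coding genes annotated within 500 kb of the outer HOX genes or between them, 43 were in the table and 33 were tested. With EPZ-6438 against N2B27 5 rose, 3 fell and 25 did not pass, with a median log2 fold change of -0.04, beside 14.2% and 10.6% of all genes. EVX1, a homeobox gene next to HOXA13, rose from 0.230 ± 0.0425 to 1.78 ± 0.518 CPM (SD, n = 3, log2 2.92, SE 0.54, adjusted p = 0.000985) and had no count in PXGL. SKAP2, a signalling adaptor on the anterior side of HOXA, was at 3.18 ± 0.361 CPM in N2B27 and 10.2 ± 1.08 with EPZ-6438, a 3.21-fold increase (log2 1.68, SE 0.18, adjusted p = 2.49e-06). PHOSPHO1, a bone phosphatase gene on the HOXB13 side, rose 5.52-fold (log2 2.47, SE 0.38, adjusted p = 0.000147). ITGA5 and ATF7, flanking HOXC, rose 1.59-fold and 1.45-fold, and CBX1, PRR13 and PDE1B fell. Beside HOXD no tested neighbour passed. EVX2, next to HOXD13, was not tested, with 1, 2 and 23 counts over PXGL, N2B27 and EPZ-6438. In N2B27 against PXGL the 33 flanking genes gave 5 higher and 14 lower calls, beside 27.3% and 28.7% of all genes. With EPZ-6438 against PXGL they gave 4 higher and 10 lower, beside 28.1% and 28.0%.

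**Figure D4:**
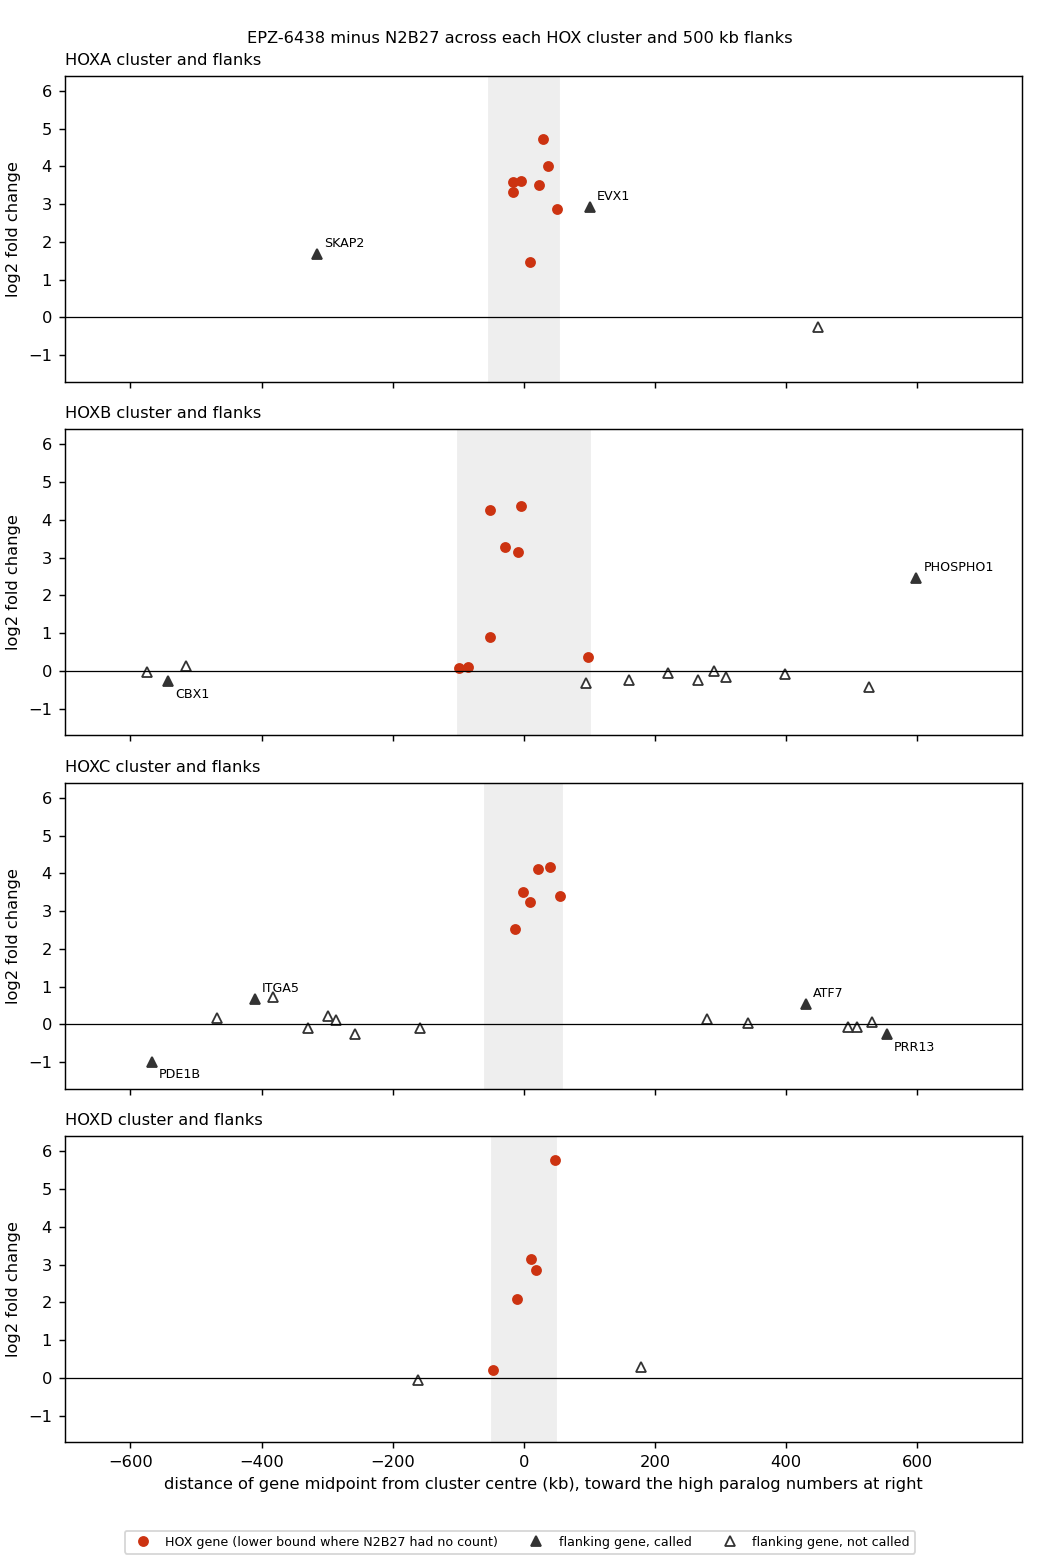
Log2 fold change of EPZ-6438 over N2B27 against the distance of each gene's midpoint from the centre of its HOX cluster (kb), with the cluster shaded. HOX genes (circles) stand mostly above 2, and the tested flanking genes (triangles, filled where the test was passed) lie near 0 except for EVX1, SKAP2 and PHOSPHO1 above it and PDE1B below.

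Noncoding RNAs of the clusters followed in part. Of 19 listed, 6 were tested, and with EPZ-6438 against N2B27 3 rose and 3 did not pass, beside 14.2% of all genes rising. HOTAIRM1, in the anterior part of HOXA, was at 2.58, 1.37 and 1.72 CPM in PXGL, 0, 0.211 and 0.333 in N2B27 and 4.36, 4.01 and 3.73 with EPZ-6438, with EPZ-6438 above N2B27 (log2 4.40, SE 0.50, adjusted p = 5.48e-06) and above PXGL (log2 1.09, SE 0.34, adjusted p = 0.0115). HOTAIR, in the HOXC cluster, was at 1.04, 0.931 and 0.999 CPM in PXGL, 0.0696, 0.141 and 0 in N2B27 and 1.34, 1.94 and 0.881 with EPZ-6438, with PXGL and EPZ-6438 overlapping (log2 4.19, SE 0.69, adjusted p = 0.000241 over N2B27). HAGLR, beside HOXD1, passed by a small margin (log2 1.38, SE 0.49, adjusted p = 0.04996). HOXA11-AS, the antisense partner of HOXA11, showed 1.97, 1.53 and 1.22 CPM in PXGL, 0.0696, 0.351 and 0.0666 in N2B27 and 0.335, 0.425 and 0.0677 with EPZ-6438. HOXA11-AS thus stayed low with EPZ-6438 (log2 0.77, SE 0.81, adjusted p = 0.53, and log2 -2.46, SE 0.57, adjusted p = 0.00159 against PXGL) while HOXA11 itself rose. HOXB-AS1 also stayed low, at 0.395 ± 0.288 CPM in N2B27 and 0.398 ± 0.253 with EPZ-6438, and PRAC2 did not pass. In N2B27 5 of the 6 were lower than in PXGL and 0 higher (28.7% and 27.3% of all genes), and against PXGL the EPZ-6438 group had 1 higher and 2 lower (28.1% and 28.0%). The labels do not say whether counting used strand, and expected counts of HOXA11 and HOXA11-AS summed to whole reads in 2 PXGL libraries (39.8 with 36.2, and 45.16 with 21.84), so the split of reads within this pair is uncertain.

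Of the partners of HOX proteins, MEIS1 and MEIS2 rose with EPZ-6438 while the other 6 tested either fell or did not pass. Of 9 PBX, MEIS and PKNOX genes 8 were tested, and with EPZ-6438 against N2B27 2 rose, 2 fell and 4 did not pass, around a median log2 fold change of 0.00, beside 14.2% and 10.6% of all genes. MEIS2 was at 11.2, 9.14 and 10.9 CPM in PXGL, 0.487, 0.913 and 0.800 in N2B27 and 7.24, 7.72 and 10.6 with EPZ-6438, low only in the N2B27 libraries among the 9 (11.5-fold, log2 3.52, SE 0.26, adjusted p = 4.22e-08). MEIS1 was at 3.07, 5.64 and 3.33 CPM in PXGL, 0.487, 0.632 and 1.40 in N2B27 and 5.30, 4.62 and 4.94 with EPZ-6438 and also passed (5.81-fold, log2 2.54, SE 0.35, adjusted p = 4.64e-05). PBX3 fell from 38.1 ± 1.85 to 29.9 ± 3.20 CPM (log2 -0.35, SE 0.09, adjusted p = 0.00917). Between PXGL and N2B27 1 of the 8 rose (PBX2) and 6 fell, beside 27.3% and 28.7% of all genes. From PXGL to EPZ-6438 1 rose and 4 fell, beside 28.1% and 28.0%.

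CDX1 and CDX2, which act upstream of HOX in the embryo, were also higher, and retinoic acid genes were mixed. They were the tested members of 6 CDX and ParaHox genes, and both rose against N2B27 and against PXGL. CDX4 was too low to test, with 5, 6 and 1 counts over PXGL, N2B27 and EPZ-6438. CDX1 was at 3.29, 3.78 and 3.61 CPM in PXGL, 3.34, 3.44 and 2.07 in N2B27 and 13.1, 12.2 and 14.0 with EPZ-6438 (4.44-fold over N2B27, log2 2.15, SE 0.19, adjusted p = 4.27e-07). CDX2 was at 0.603, 0.657 and 0.333 CPM in PXGL, 0, 0.0703 and 0.0666 in N2B27 and 2.41, 2.01 and 2.91 with EPZ-6438, with 2 counts over the N2B27 group and 112 with EPZ-6438 (adjusted p = 8.03e-06). CDX1 in N2B27 did not pass against PXGL, and CDX2 fell. Of 17 retinoic acid pathway genes 13 were tested, and 5 rose, 2 fell and 6 did not pass against N2B27 (median 0.23), beside 14.2% rising and 10.6% falling among all genes. CRABP2, a retinoic acid binding protein, rose 2.25-fold (log2 1.17, SE 0.11, adjusted p = 1.11e-06), and the synthesis enzymes ALDH1A3 and RDH10 rose 1.98-fold and 2.08-fold. CRABP1 and the receptor RARG fell 2.35-fold and 1.58-fold. Between PXGL and N2B27 the pathway gave 4 higher and 3 lower calls (27.3% and 28.7% of all genes), and between PXGL and EPZ-6438 8 and 3 (28.1% and 28.0%).

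PRC2 subunit transcripts changed by less than any called HOX gene. With EPZ-6438 against N2B27 EZH2, the target of the inhibitor, went from 71.9 ± 2.85 to 82.4 ± 3.61 CPM (log2 0.20, SE 0.07, adjusted p = 0.0415). EED rose (log2 0.49, SE 0.10, adjusted p = 0.00209), SUZ12 fell (log2 -0.21, SE 0.06, adjusted p = 0.0213) and RBBP4 fell (log2 -0.32, SE 0.06, adjusted p = 0.00128), and the other 2 of 6 core genes did not pass. Among all genes 14.2% rose and 10.6% fell in that comparison. EED and SUZ12 also fell between PXGL and N2B27 (28.7% of all genes lower), and between PXGL and EPZ-6438 SUZ12 and RBBP4 fell (28.0%). The inhibitor acts on the enzyme's activity, so these transcript levels do not show whether it worked.

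Sums of mesoderm, endoderm, trophoblast and neural markers were higher with EPZ-6438 than in N2B27, as HOX sums were. Mesoderm, endoderm, neural and fibroblast sums were also higher in N2B27 than in PXGL, where HOX sums fell. Trophoblast sums overlapped between PXGL and N2B27, with 1 gene higher and 3 lower, and naive marker sums fell, with 0 higher and 5 lower. Mesoderm markers summed to 11.7 to 14.6 CPM in PXGL, 23.7 to 25.5 in N2B27 and 144 to 156 with EPZ-6438. Against N2B27 3 of 4 tested of 8 rose (TBXT, MIXL1 and HAND1), and MSGN1 was at 0 in PXGL. The other tested gene, TBX6, was at 1.43 ± 0.152 CPM in PXGL, 0.491 ± 0.575 in N2B27 and 0.144 ± 0.194 with EPZ-6438. TBX6 with EPZ-6438 did not pass against N2B27 (log2 -1.64, adjusted p = 0.257). It was lower than in PXGL (log2 -3.18, SE 0.86, adjusted p = 0.00478). Hypoblast and endoderm markers summed to 57.5 to 74.0, 110.5 to 119 and 185 to 187 CPM, with 4 of 5 tested rising and APOA1 at 0 throughout. COL4A1 made up most of that sum in N2B27 and with EPZ-6438, at 85.6 ± 4.28 and 128 ± 2.89 CPM. Between PXGL and N2B27 3 of the 5 were higher and 1, HNF4A, was lower. HNF4A was at 29.4 ± 4.27 CPM in PXGL, 8.30 ± 0.319 in N2B27 and 21.0 ± 0.817 with EPZ-6438. Trophoblast markers summed to 6.52 to 9.58, 7.44 to 8.66 and 17.5 to 20.4 CPM, with 3 of 5 tested rising and ELF5, CGA and VGLL1 at 0 in all libraries. Neural markers summed to 2.08 to 3.00, 3.58 to 4.46 and 8.13 to 10.0 CPM, with 1 of 3 tested rising and PAX3 at 0 in PXGL and N2B27. Between PXGL and N2B27 0 of these 3 passed the test. Fibroblast markers summed to 20.4 to 25.9 CPM in PXGL, 168 to 182 in N2B27 and 89.7 to 94.9 with EPZ-6438. In that list 3 of 4 tested fell with EPZ-6438, DCN was at 0 in N2B27 and with EPZ-6438, LUM in PXGL and N2B27, and THY1, which pluripotent cells also express, made up most of the N2B27 sum at 118 ± 8.39 CPM. Naive markers summed to 3151 to 3673, 2402 to 2415 and 2598 to 2656 CPM, with 4 rising and 2 falling of 8 against N2B27, and all 8 core pluripotency genes fell against N2B27. Among all genes tested, 14.2% rose and 10.6% fell with EPZ-6438 against N2B27. Between PXGL and N2B27, 27.3% were higher and 28.7% lower in N2B27. The part of the listed cell types in the HOX changes was not tested.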

How the data were processed

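RNA was sequenced from 9 libraries of H1 cells, 3 per group by title. The authors deposited 1 table of expected counts per gene symbol. The tools named in the submitters' processing notes are STAR 2.7.6a, Trim Galore and DESeq2, and the build is hg38. The labels give polyA RNA as the molecule and a ribosomal RNA depletion kit, and they speak of both triplicate samples and duplicate sequencing, so which was used is uncertain. Of 351 HOX values 19 were not whole, where overlapping genes share reads, and values were rounded. The sum of a pair of genes was taken as whole within a tolerance of 0.005.

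All 9 libraries were fitted with edgeR 4.0.16 in R 4.3.3 (TMM scaling, filterByExpr by group, robust quasi-likelihood, no replicate block), with Benjamini-Hochberg adjustment over 15179 tested genes and a threshold of 0.05. The code was tested on simulated data. Fold bounds for groups without a count use 3 counts over the group, and intervals are 95% and cover counting error only. Gene positions and exon lengths came from GENCODE 29, which matched 36547 of 40332 symbols. Alternatives were other scalings, other filters, DESeq2 1.42.0, only the 2 groups compared, a replicate block and each library left out.

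HOX genes are reported in each library where their mean reached 1 CPM in any group, except that 1 member, counted in sums and totals, and 1 cofactor are not reported here. From the lists of PBX and MEIS cofactors, CDX and ParaHox, EVX, noncoding RNAs, the retinoic acid pathway, PRC2, HOX group regulators, 7 marker lists and flanking genes, up to 4 called genes with the smallest adjusted p were named, with a few chosen after their values were seen to spell out small counts. The HOX members and all lists were chosen with earlier results of these data known.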

Additional observations from a re-analysis of the deposited data

How the results depend on the processing

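The replicate numbers did not pair the libraries (correlations of deviations between same-numbered libraries from -0.026 to 0.037), and a replicate block left the calls at 24 higher and 0 lower for EPZ-6438 against N2B27, 0 and 25 for N2B27 against PXGL and 6 and 5 for EPZ-6438 against PXGL. Medians with the block were 3.29, -3.44 and 0.01. Without the filter on low counts the medians in these 3 comparisons were 3.14, -2.63 and 0.35, since genes with few counts then enter, and 6 of the 11 members that the filter removed were called higher with EPZ-6438 than in N2B27. DESeq2's Wald test gave medians of -2.69 for N2B27 against PXGL and 0.36 for EPZ-6438 against PXGL. The number of HOX genes higher with EPZ-6438 than PXGL was 10 of 39 tested without the filter and 10 of 38 with DESeq2. Fitting only the 2 groups compared gave 19 genes higher with EPZ-6438 than N2B27 of 22 tested. In that fit 5641 of 14566 genes of the whole table were called, against 3752 of 15179 in the main fit. PXGL replicate 1 differed from the other 2 PXGL libraries by a chi-square per degree of freedom of 19.6 and 26.3. The other pairs within groups gave 2.57 to 3.66. The background shares for EPZ-6438 against N2B27 thus depend on this library, and calls in the other lists were not repeated without it. Leaving out 1 library at a time gave 23 to 28 higher and 0 to 0 lower calls for EPZ-6438 against N2B27 (median 3.09 to 3.30), 0 to 0 higher and 25 to 25 lower for N2B27 against PXGL (median -3.41 to -2.96), and 5 to 10 higher and 3 to 5 lower for EPZ-6438 against PXGL (median 0.0831 to 0.39). 

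Signs turned only in genes that did not pass the test. Against PXGL, HOXC10 was 0.000674 with DESeq2 size factors, 0.000404 with DESeq2's Wald test and 0.000709 with the replicate block. HOXA9 was -0.0141 by total count and -0.0027 without the filter, HOXC12 was -0.00825 by total count and HOXA4 was 0.00846 with the replicate block. With 1 library left out, log2 fold changes of EPZ-6438 over N2B27 ran from -0.0601 to 0.16 in HOXB1, -0.0636 to 0.19 in HOXB2 and -0.32 to 0.46 in HOXD1. Against PXGL they ran from -0.75 to 0.35 in HOXA3, -0.24 to 0.31 in HOXA4, -0.38 to 0.25 in HOXA5, -0.11 to 0.11 in HOXA9, -0.71 to 0.24 in HOXB4, -0.0322 to 0.60 in HOXB6, -0.10 to 0.0638 in HOXC10 and -0.22 to 0.20 in HOXC12. The cause of these shifts was not tested. Depth limits the 14 members below 1 CPM in every group, for which 3 counts in a library are 0.164 to 0.211 CPM. The calls of HOXA3, HOXD4, HOXA7, HOXB7 and HOXB13 that were lost with 1 library left out are given with those genes. With 1 N2B27 library left out, fitted folds over N2B27 moved by more than 1.5 times in HOXA3, HOXA4, HOXA5, HOXA10, HOXA11, HOXC6, HOXC10 and HOXD9, whose N2B27 libraries held few counts.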

Other observations

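Regulators that act on the HOX clusters as a group mostly did not pass the test between N2B27 and EPZ-6438, with BMI1 as the main exception. Of 14 listed genes, among them Polycomb repressive complex 1 subunits, MLL methyltransferases, histone demethylases, CTCF and GDF11, 13 were tested, and 3 rose, 0 fell and 10 did not pass edgeR's quasi-likelihood test (median log2 fold change 0.04, with 2 lower at an unadjusted p under 0.05), beside 14.2% rising and 10.6% falling among all genes. BMI1, a Polycomb repressive complex 1 subunit, was at 50.5, 40.0 and 38.7 CPM in PXGL, 46.6, 49.5 and 45.8 in N2B27 and 128, 126 and 133 with EPZ-6438. PXGL and N2B27 overlapped and every EPZ-6438 library stood above both (2.73-fold over N2B27, log2 1.45, SE 0.09, adjusted p = 6.08e-09). GDF11, a signal that patterns the trunk to tail transition, rose 1.39-fold (log2 0.47, SE 0.11, adjusted p = 0.00527). RING1, another subunit of that complex, rose 1.24-fold (log2 0.31, SE 0.11, adjusted p = 0.0462). Between PXGL and N2B27 the same list gave 3 higher and 4 lower calls (27.3% and 28.7% of all genes), and between PXGL and EPZ-6438 3 higher and 5 lower (28.1% and 28.0%).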
